A study of Mus musculus with 17 samples.

Results

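The genes described here are 45 genes of the cell division cycle, 17 that act around S phase, when DNA is copied, and 28 that act in mitosis, when the copied chromosomes are separated. They were found by gene symbol in the annotation of the array, and each gene was read from its brightest detected probe. Of the 45 genes, 43 had a probe and 37 were measured, among 12137 genes tested in all. All 17 S phase genes were measured, and 20 of the 28 mitosis genes. The other 8 mitosis genes carry no value below. No probe had the symbol Mki67, the proliferation antigen, or Ccnb1, a mitotic cyclin. The probes of Ccnb2 and Ccna2, which are cyclins, of Bub1, a checkpoint kinase, of the spindle motors Kif20a and Cenpe, and of Ube2c, an enzyme that marks mitotic proteins for destruction, were each detected on 3 or fewer of 16 arrays.

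A cell that divides first loads the MCM helicase onto its origins of replication, then makes nucleotides, opens the DNA and copies it. In mitosis it builds a spindle, attaches the chromosomes at their kinetochores, waits for a checkpoint and splits. Most genes of both phases are transcribed mainly in cycling cells. The S phase genes are regulated largely through E2F factors, and the mitosis genes largely through the DREAM and FOXM1 complexes. In the ovary the granulosa cells of growing follicles divide under follicle-stimulating hormone (FSH), acting through its receptor Fshr. Luteinising hormone (LH), acting through its receptor Lhr, triggers ovulation and turns granulosa cells into luteal cells of the corpus luteum, which leave the cycle.

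RNA of whole ovaries from female mice of an FVB/N x C57/BL6 cross, 12 weeks old, was hybridised to Illumina bead arrays, 1 sample per array. The labels cross an Fshr mutant allele named Fshr-CAM with loss of Lhr, which gives 4 genotypes. There were 5 Fshr-CAM/Lhr-null arrays, 4 Lhr-null arrays, 4 Fshr-CAM arrays and 4 wild type arrays. What CAM stands for, the mutation, the promoter that drives it and the way Lhr was removed are not given in the sources used here. The labels do not say whether replicates came from separate mice, so the p-values speak of the spread among these arrays alone, which may be technical. The ovary was measured whole, so fewer dividing cells and less RNA per dividing cell cannot be told apart.

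Between 19366 and 22006 of 45281 probes were detected per array, with median signals of 56.7 to 74.4. The array titled WT/Lhr-/- 1, replicate 1 of the Lhr-null group, stood apart from the rest. Its pituitary gene list averaged 13.73 on the log2 scale, against 4.36 to 4.58 on the other 16 arrays. It is shown apart for these pituitary transcripts, which were known from earlier results of these data. The values below come from the other 16 arrays unless stated. Its signal was lower than on every other array for 37 of the 37 measured genes, so leaving it out raises the Lhr-null means. With it included, 0 of the 37 genes rose in Lhr-null against wild type ovaries. Fshr averaged 11.16 ± 0.81 in Fshr-CAM/Lhr-null ovaries (SD, n = 5), 9.60 ± 0.41 in Lhr-null ovaries (n = 3), 11.52 ± 0.32 in Fshr-CAM ovaries (n = 4) and 8.79 ± 0.36 in wild type ovaries (n = 4). Lhcgr, the gene of Lhr, had 0 probes by that symbol, so its transcript was not analysed here.

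Signal of both classes was higher without Lhr, on either Fshr genotype. The mean log2 signal over the 17 S phase genes was 8.54, 8.47, 8.48, 9.19 and 8.78 on the 5 Fshr-CAM/Lhr-null arrays, and 8.75, 9.05 and 8.91 on Lhr-null arrays 2 to 4. It was 7.86, 8.34, 8.40 and 8.51 on the 4 Fshr-CAM arrays, and 8.28, 7.94, 8.46 and 8.47 on the 4 wild type arrays. The 3 Lhr-null arrays lay above all 8 arrays that kept Lhr, while the lowest Fshr-CAM/Lhr-null arrays overlapped with the highest of them.

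The mean over the 20 mitosis genes gave the same order of groups. It averaged 8.55 ± 0.31 in Fshr-CAM/Lhr-null ovaries (SD, n = 5), 8.81 ± 0.31 in Lhr-null ovaries (n = 3), 8.09 ± 0.31 in Fshr-CAM ovaries (n = 4) and 8.21 ± 0.32 in wild type ovaries (n = 4). The S phase mean averaged 8.69 ± 0.31, 8.90 ± 0.15, 8.28 ± 0.28 and 8.29 ± 0.25 in the same groups and order. The mitosis mean minus the S phase mean, a difference within each array whose size depends on the probes, averaged −0.14 ± 0.05, −0.09 ± 0.18, −0.19 ± 0.13 and −0.08 ± 0.08 in these groups, and its ranges over arrays overlapped among the 4 genotypes. On Lhr-null replicate 1, in values scaled with all 17 arrays, the means were 6.37 for S phase and 5.79 for mitosis, against 7.85 to 9.17 and 7.69 to 9.14 on the other 16.

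**Figure D1:**
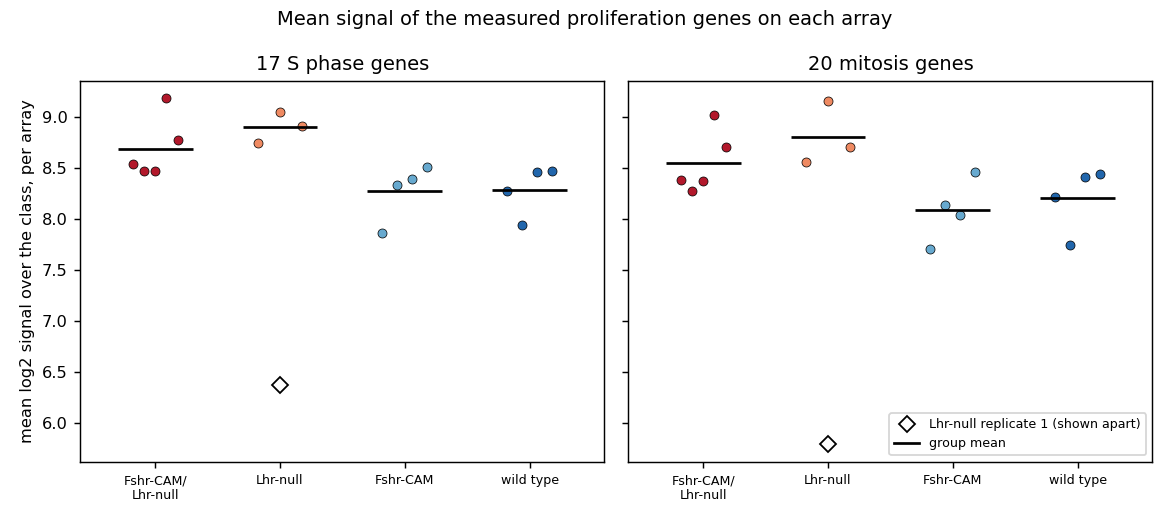
Each point is 1 array, with the mean log2 signal over the 17 S phase genes (left) or the 20 mitosis genes (right) on the vertical axis and the genotype on the horizontal axis; black lines are group means over the 16 arrays, and the open diamond is Lhr-null replicate 1. The 3 other Lhr-null arrays lie above the wild type and Fshr-CAM arrays in both panels, and the diamond lies at 6.37 and 5.79, below every other array.

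The comparison of Lhr-null with wild type ovaries asks what loss of Lhr did on its own. In it, 7 of the 37 genes rose and 1 fell at an adjusted p under 0.05 (limma, Benjamini-Hochberg over all 12137 genes). Over all genes 5.5% were called higher and 6.9% lower. The difference was above 0 for 36 of 37 genes, with a median of 0.61 over the S phase genes and 0.74 over the mitosis genes, against −0.0036 over all genes. The unadjusted p was under 0.05 for 30 of the 37 genes, 15 in each class, against 3482 of all 12137 genes. For 26 genes, 13 of each class, all 3 Lhr-null arrays lay above all 4 wild type arrays, an order found for 12.1% of all genes. For 1 gene, Kif23, they lay below them, an order found for 12.7%.

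The S phase genes that rose belong to the helicase that unwinds DNA at the fork. Mcm2, a subunit of the MCM helicase, had log2 signals of 8.60, 8.74 and 8.75 in Lhr-null ovaries, against 8.06, 7.37, 8.26 and 7.82 in wild type ovaries. The 2 groups did not overlap, and the fitted difference was 0.82 ± 0.22 (SE, 1.77-fold, limma adjusted p = 0.0259). Mcm4, another subunit of the same ring, had 11.31, 11.19 and 11.44 in Lhr-null ovaries, against 10.59, 10.48, 10.82 and 10.66 in wild type ovaries. Its arrays did not overlap either, and it rose by 0.68 ± 0.18 (1.60-fold, limma adjusted p = 0.0258).

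Gins1 and Gins2 encode subunits of the GINS complex, which binds the MCM ring to make the active helicase. Gins1 had 7.84, 7.67 and 7.63 in Lhr-null ovaries, against 7.04, 6.36, 7.21 and 7.12 in wild type ovaries. It rose by 0.78 ± 0.24 (1.72-fold, limma adjusted p = 0.043). Gins2 had 8.09, 8.31 and 8.36 in Lhr-null ovaries, against 7.44, 7.27, 7.68 and 7.88 in wild type ovaries, and it rose by 0.69 ± 0.19 (1.61-fold, limma adjusted p = 0.0283). Neither gene had a wild type array that reached the lowest Lhr-null array, and replicate 2 was the lowest wild type array for both.

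Among the mitosis genes Top2a, Aurka and Prc1 rose. Top2a, the topoisomerase II that untangles copied chromosomes, had 9.71, 10.16 and 9.78 in Lhr-null ovaries, against 8.91, 8.33, 9.07 and 8.88 in wild type ovaries. That is a difference of 1.09 ± 0.28 (2.12-fold, limma adjusted p = 0.0189). Aurka, the Aurora A kinase of the spindle poles, had 9.75, 9.83 and 9.46 in Lhr-null ovaries, against 8.87, 8.14, 9.06 and 8.69 in wild type ovaries, a difference of 0.99 ± 0.30 (1.99-fold, limma adjusted p = 0.0399). Prc1, which bundles microtubules of the spindle midzone, had 11.23, 11.66 and 11.43 in Lhr-null ovaries, against 10.62, 10.03, 10.82 and 10.72 in wild type ovaries, a difference of 0.89 ± 0.26 (1.86-fold, limma adjusted p = 0.0335). For these 3 genes too the groups did not overlap, and wild type replicate 2 was the lowest array.

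Cdk1, the kinase that starts mitosis, missed the threshold with a similar pattern. It had 9.82, 10.38 and 9.78 in Lhr-null ovaries, against 9.21, 8.85, 9.68 and 9.52 in wild type ovaries, and its difference was 0.68 ± 0.22 (limma adjusted p = 0.0579). Plk1, the polo kinase of mitotic entry, had a difference of 0.79 ± 0.25 (limma adjusted p = 0.051). Pcna, the clamp that holds DNA polymerase on its template, had 6.28, 7.27 and 6.59 in Lhr-null ovaries, against 6.02, 6.38, 6.16 and 7.19 in wild type ovaries. The groups overlapped for Pcna, with a difference of 0.28 ± 0.43 (95% interval −0.64 to 1.20, limma adjusted p = 0.733).

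The number of genes past the threshold in this comparison depended on single arrays among the 16, while both medians stayed above 0 without any 1 of them. No gene rose without wild type replicate 2, and 1 to 4 rose without wild type replicate 1 or Lhr-null replicate 2, 3 or 4. Without wild type replicate 3 the number was 11, without Fshr-CAM/Lhr-null replicate 4 it was 16, and without Fshr-CAM replicate 1 it was 19. With Lhr-null replicate 1 included the number was 0, and the medians were −0.01 for S phase and −0.14 for mitosis. On values without background correction, centred on each array's median, 3.23% of all genes were called higher and 7.85% lower, and 2 of the 37 genes rose (medians 0.43 and 0.54).

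**Figure D2:**
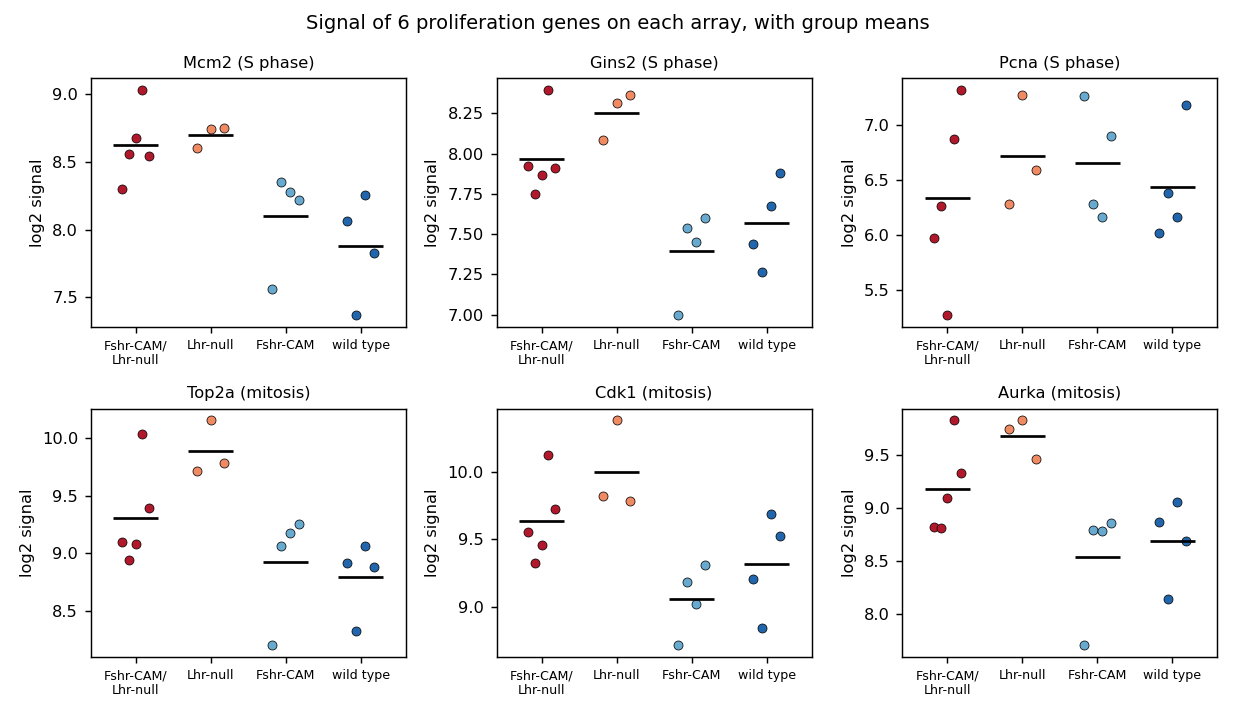
Log2 signal (vertical axes) of 3 S phase and 3 mitosis genes on each of the 16 arrays, by genotype; points are arrays and lines are group means. For Mcm2, Gins2, Top2a, Cdk1 and Aurka the 3 Lhr-null arrays lie above the 4 wild type arrays, and for Pcna the 4 groups overlap.

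Promoters of the genes were taken from RefSeq (build GRCm38.p6) as windows of 300 bases, 250 before and 50 after each start. Of the 45 genes, 37 matched, 14 of S phase with 16 windows and 23 of mitosis with 24 windows. Letters of a cell cycle homology region, TTTGAA on either strand, were in 17 of 24 mitosis windows (70.8%) and in 1 of 16 S phase windows (6.25%), against 17.9% of all 32851 windows of the table. Letters of an E2F site, searched as TTTCCCGC, TTTGGCGC, TTTCGCGC or TTTGCCGC on either strand, were in 7 of 16 S phase windows (43.8%) and 1 of 24 mitosis windows (4.17%), that of Cdk1, against 2.26% of all windows. The letters CCAAT, read on either strand, were in 68.8% of S phase windows, 79.2% of mitosis windows and 37.4% of all windows. TTTGAA shares no stretch with the E2F words that could count 1 match as both.

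The promoters below belong to genes that the results turn on: Mcm2 and Top2a, which had the largest called differences of their classes in Lhr-null against wild type ovaries, Kif23, which fell, and Mcm5. Mcm5 was chosen after its values were seen: among S phase genes with E2F letters upstream of the start in the first window the table lists, it had the smallest p for Lhr loss averaged over both Fshr genotypes. Uhrf1, with a smaller p, has E2F letters only in the second of its windows. Each is the 250 bases before the start, 5′ to 3′ on the strand of the gene, with capitals on CCAAT boxes, on E2F letters and on TTTGAA, as read or in reverse complement. The Mcm2 stretch is chr6:88898781-88899030 on the minus strand, and Mcm2 is the S phase gene whose window holds TTTGAA, 70 bases before the start. The Top2a stretch is chr11:99024190-99024439 on the minus strand, with TTTGAA as read and in reverse complement and with 6 CCAAT boxes. The Kif23 stretch is chr9:61946800-61947049 on the minus strand, where TTTGAA lies just past the start and so outside the bases shown. The Mcm5 stretch is chr8:75109259-75109508 on the plus strand, where a pair of E2F words overlap.
Mcm2: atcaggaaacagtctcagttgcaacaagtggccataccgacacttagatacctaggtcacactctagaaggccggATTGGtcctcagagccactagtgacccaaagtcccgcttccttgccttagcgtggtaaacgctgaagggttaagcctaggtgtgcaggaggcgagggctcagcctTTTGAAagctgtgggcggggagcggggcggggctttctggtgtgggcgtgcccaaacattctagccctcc
Top2a: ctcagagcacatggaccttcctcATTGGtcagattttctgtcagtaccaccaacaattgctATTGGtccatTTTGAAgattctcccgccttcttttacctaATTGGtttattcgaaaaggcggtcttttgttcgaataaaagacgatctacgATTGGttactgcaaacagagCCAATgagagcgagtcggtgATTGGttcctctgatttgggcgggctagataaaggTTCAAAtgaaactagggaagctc
Kif23: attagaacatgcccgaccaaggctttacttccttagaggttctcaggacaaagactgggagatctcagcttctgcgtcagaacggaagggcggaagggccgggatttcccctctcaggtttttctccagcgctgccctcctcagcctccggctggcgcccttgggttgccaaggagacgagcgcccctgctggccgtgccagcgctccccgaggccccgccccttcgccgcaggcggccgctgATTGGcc
Mcm5: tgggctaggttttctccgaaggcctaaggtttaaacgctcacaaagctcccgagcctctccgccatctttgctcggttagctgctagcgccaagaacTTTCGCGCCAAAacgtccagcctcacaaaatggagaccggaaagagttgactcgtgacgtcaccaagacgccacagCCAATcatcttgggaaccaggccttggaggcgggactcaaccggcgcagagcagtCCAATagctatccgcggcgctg

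How far the genes moved was set beside the match of letters, without a test. Over the measured mitosis genes, the 13 whose windows hold TTTGAA had a median difference of 0.68 for Lhr loss averaged over both Fshr genotypes (described below), and the 4 without it had 0.63. Over the S phase genes the 7 with E2F letters had a median of 0.57 and the 7 without them 0.49. These medians are descriptions over few genes and cannot show whether letters and differences are related. A match of letters is not a measured binding site.

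Loss of Lhr was measured a further time on the Fshr-CAM genotype, in Fshr-CAM/Lhr-null against Fshr-CAM ovaries, with no array shared with the comparison above. The difference was above 0 for 35 of 37 genes, with medians of 0.45 for S phase and 0.56 for mitosis, against 0.02 over all genes. None of the 37 passed an adjusted p under 0.05 (limma), where 0.445% of all genes were called higher and 1.66% lower. An unadjusted p under 0.05 was found for 21 of the 37, a larger share than among all genes. The percentages just given are for adjusted calls and are no baseline for that count. For 5 genes, Mcm4, Gins2, Aurkb, Cdk1 and Kif11, all Fshr-CAM/Lhr-null arrays lay above all Fshr-CAM arrays, an order found for 3.19% of all genes. For none did they all lie below, an order found for 4.2%, and Kif23 overlapped.

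Gins2 came nearest to the threshold. It had 7.92, 7.75, 7.87, 8.40 and 7.91 in Fshr-CAM/Lhr-null ovaries, against 6.997, 7.54, 7.45 and 7.60 in Fshr-CAM ovaries, and a difference of 0.57 ± 0.17 (limma adjusted p = 0.0917). Rrm2, the subunit of ribonucleotide reductase that limits nucleotide supply, had 6.77, 6.43, 6.82, 7.25 and 6.81 in Fshr-CAM/Lhr-null ovaries, against 5.76, 6.34, 6.41 and 6.51 in Fshr-CAM ovaries, and a difference of 0.56 ± 0.17 (limma adjusted p = 0.114). The groups did not overlap for Gins2 and overlapped for Rrm2, where the highest Fshr-CAM array exceeded the lowest Fshr-CAM/Lhr-null array.

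Cdk1 had 9.56, 9.32, 9.46, 10.12 and 9.73 in Fshr-CAM/Lhr-null ovaries, against 8.71, 9.19, 9.02 and 9.31 in Fshr-CAM ovaries. Its difference was 0.58 ± 0.20 (limma adjusted p = 0.147). The lowest Fshr-CAM/Lhr-null array and the highest Fshr-CAM array of Cdk1 nearly met. Mcm2 differed by 0.52 ± 0.20 (limma adjusted p = 0.18), Top2a by 0.39 ± 0.24 (limma adjusted p = 0.436) and Pcna by −0.32 ± 0.38 (limma adjusted p = 0.728).

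Across genes, the differences by Lhr loss on the 2 Fshr genotypes had the same sign for 36 of 37 genes: 35 were above 0 in both, Kif23 was below 0 in both, and Pcna had opposite signs. Of all 12137 genes, 4569 (37.6%) were above 0 in both, 4160 were below 0 in both and 3408 had opposite signs. A shared sign was thus common over all genes too. The Pearson correlation of the 2 differences was 0.77 across the 37 genes and 0.67 across all 12137 genes, given as a description since genes share the same arrays. The first value includes Kif23, which lay far below the rest and whose probes disagreed (described below). It was not computed without Kif23. Without background correction and with median centring, the median of all genes moved to −0.12 in Fshr-CAM/Lhr-null against Fshr-CAM and to −0.08 in Fshr-CAM/Lhr-null against wild type. The medians of the 37 genes stayed above 0 in the first of these, at 0.21 for S phase and 0.30 for mitosis, and 0.157% of all genes were called higher and 4.9% lower.

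**Figure D3:**
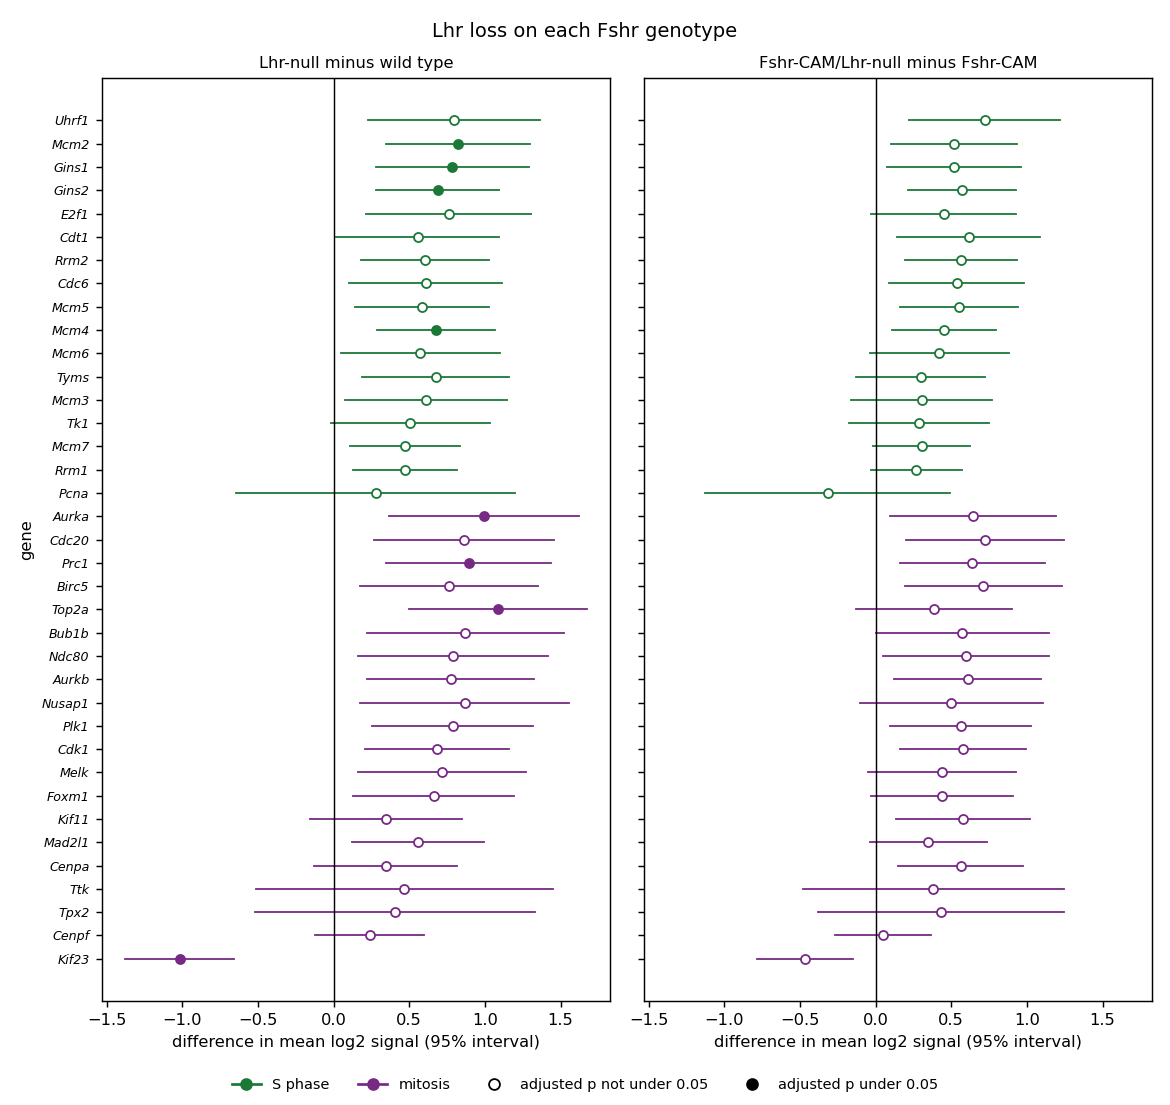
Fitted difference in mean log2 signal with its 95% interval (horizontal axes) for each of the 37 genes, in Lhr-null minus wild type (left) and Fshr-CAM/Lhr-null minus Fshr-CAM (right); green marks S phase, purple mitosis, and filled points an adjusted p under 0.05. On the left 36 of 37 points and on the right 35 of 37 points lie above 0, Kif23 lies at −1.02 and −0.47, and none of the points on the right is filled.

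When the effect of Lhr loss was averaged over both Fshr genotypes in the same fit, a comparison added after the data were seen, 30 of the 37 genes rose and 1 fell (limma adjusted p under 0.05). Of all genes 10.8% were called higher and 10.4% lower. The genes that rose were 14 of the 17 S phase genes and 16 of the 20 mitosis genes, and the medians were 0.57 and 0.65, against 0.01 over all genes. For Mcm4 alone did all 8 arrays without Lhr lie above all 8 arrays with it, an order found for 0.807% of all genes. The number that rose was 17 without Lhr-null replicate 3 and at least as many without any other single array, and 0 with Lhr-null replicate 1 included. Without background correction and with median centring, 9 rose, while 4.06% of all genes were called higher and 17.8% lower.

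Uhrf1, which carries DNA methylation over to the new strand, had the largest S phase difference, 0.76 ± 0.18 (limma adjusted p = 0.00828). It had 10.60, 10.67, 10.44, 11.35 and 11.02 in Fshr-CAM/Lhr-null ovaries and 10.83, 11.27 and 11.01 in Lhr-null ovaries, against 9.53, 10.22, 10.03 and 10.61 in Fshr-CAM ovaries and 10.14, 9.68, 10.46 and 10.69 in wild type ovaries. The arrays without Lhr ran higher, with some overlap at the edges.

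The other S phase genes named by size were Mcm2 at 0.67 ± 0.15 (limma adjusted p = 0.00593), Gins1 at 0.65 ± 0.16 (limma adjusted p = 0.0102) and Gins2 at 0.63 ± 0.13 (limma adjusted p = 0.00322). E2f1, a transcription factor of S phase genes, rose by 0.60 ± 0.17 (limma adjusted p = 0.0211), and Cdt1, which loads the MCM ring onto origins, rose by 0.59 ± 0.17 (limma adjusted p = 0.0234). The S phase genes that did not pass were Mcm3 (0.46, limma adjusted p = 0.0635), an MCM subunit, Tk1 (0.40, limma adjusted p = 0.0977), the thymidine kinase, and Pcna (−0.02 ± 0.29, limma adjusted p = 0.975). The other 8 that passed ranged from 0.37 for Rrm1, the large subunit of ribonucleotide reductase, to 0.58 for Rrm2.

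Cdc20, which activates the ubiquitin ligase of the metaphase exit, had 9.52, 9.47, 9.61, 10.15 and 9.93 in Fshr-CAM/Lhr-null ovaries and 9.82, 10.27 and 9.77 in Lhr-null ovaries, against 8.40, 9.08, 9.10 and 9.48 in Fshr-CAM ovaries and 9.30, 8.30, 9.43 and 9.34 in wild type ovaries. It rose by 0.79 ± 0.19 (limma adjusted p = 0.00838), and the lowest array without Lhr lay just under the highest array with it. Its 4 kept probes, taken singly, all passed the threshold, at 0.64 to 1.03.

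Aurka rose by 0.82 ± 0.20 (limma adjusted p = 0.00948), Prc1 by 0.77 ± 0.17 (limma adjusted p = 0.00603) and Top2a by 0.74 ± 0.18 (limma adjusted p = 0.0116). Birc5, or survivin, the passenger protein that works with Aurora B, rose by 0.74 ± 0.18 (limma adjusted p = 0.0116), and its 3 probes gave 0.57 to 0.74. Cdk1 rose by 0.63 ± 0.15 (limma adjusted p = 0.00874), and the other 10 that passed ranged from 0.45 for Cenpa, the histone variant of the centromere, to 0.72 for Bub1b, a checkpoint kinase. The mitosis genes that did not pass were Tpx2 (0.42), an activator of Aurora A on the spindle, Ttk (0.42), a checkpoint kinase detected on 4 of 16 arrays, and Cenpf (0.14), a kinetochore protein.

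**Figure D4:**
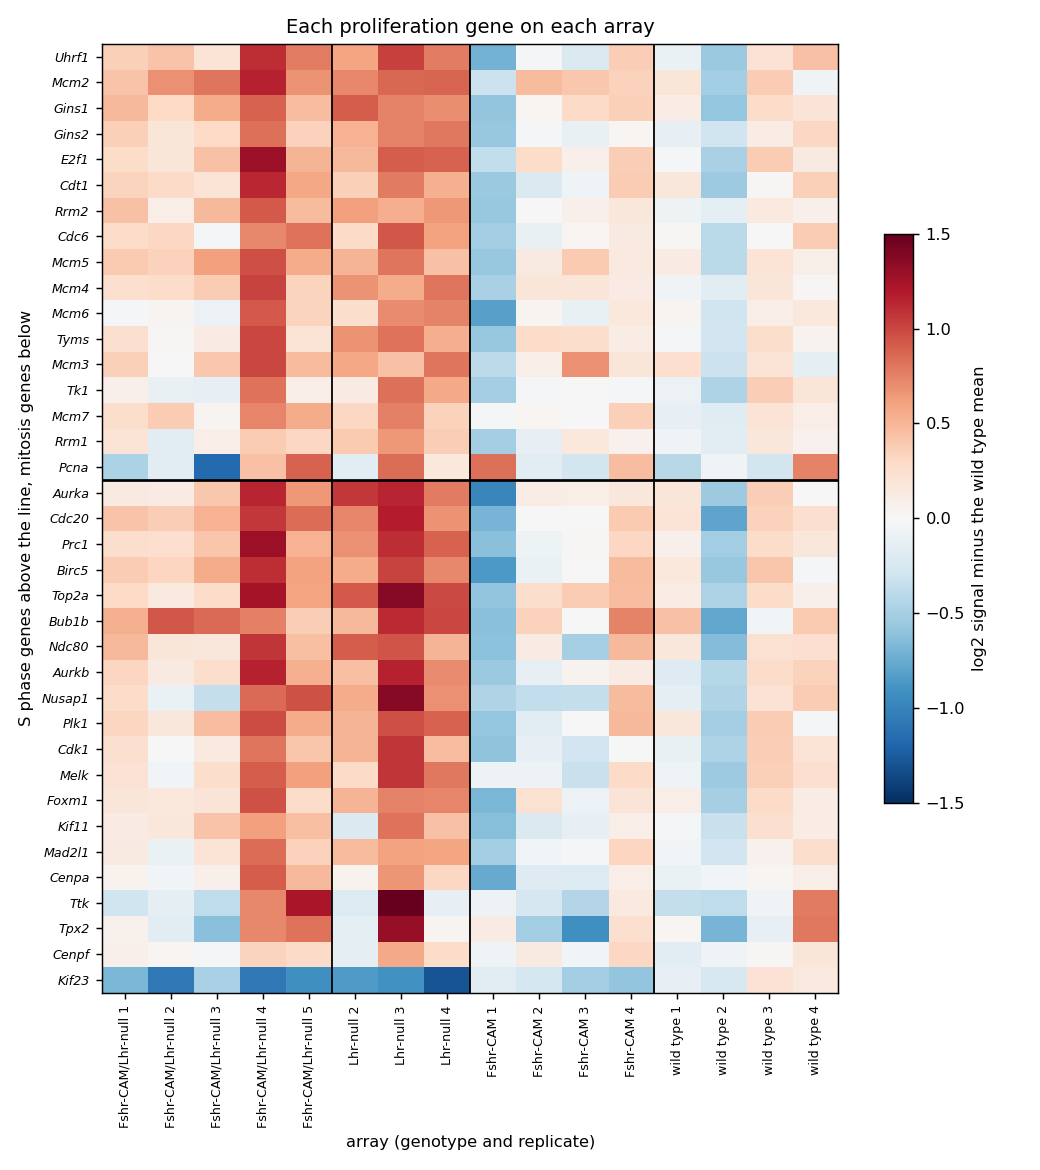
Log2 signal minus the wild type mean, by colour, for each of the 37 genes (rows) on each of the 16 arrays (columns, grouped by genotype), with the 17 S phase genes above the 20 mitosis genes; Ttk on Lhr-null replicate 3 lies beyond the end of the colour scale. Most rows are red on the 8 arrays without Lhr, Kif23 is blue there, and Fshr-CAM replicate 1 and wild type replicate 2 are blue for most genes.

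The double mutant was also compared with each single state. In Fshr-CAM/Lhr-null against wild type ovaries 1 gene rose, Mcm2, and 1 fell, Kif23 (limma adjusted p under 0.05), where 4.49% of all genes were called higher and 5.68% lower. Mcm2 had 8.30, 8.56, 8.68, 9.03 and 8.55 in Fshr-CAM/Lhr-null ovaries, above the wild type values already given, and rose by 0.75 ± 0.20 (1.68-fold, limma adjusted p = 0.0249). Its call was lost without Fshr-CAM/Lhr-null replicate 4, wild type replicate 2 or wild type replicate 4, where 0 genes rose, and 4 genes rose without Fshr-CAM replicate 1.

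Mcm5, an MCM subunit, had 10.04, 10.00, 10.26, 10.62 and 10.21 in Fshr-CAM/Lhr-null ovaries, against 9.78, 9.24, 9.85 and 9.74 in wild type ovaries. The groups did not overlap, and the difference was 0.58 ± 0.18 (limma adjusted p = 0.0602). Cdc20 differed by 0.64 ± 0.25 (limma adjusted p = 0.112), Top2a by 0.51 ± 0.24 (limma adjusted p = 0.202), Cdk1 by 0.32 ± 0.20 (limma adjusted p = 0.335) and Pcna by −0.10 ± 0.38 (limma adjusted p = 0.908). The medians were 0.45 over the S phase genes and 0.37 over the mitosis genes, against 0.04 over all genes, and 35 of 37 differences were above 0. For 5 genes, Mcm2, Mcm4, Mcm5, Gins1 and Cdc20, the arrays lay above all wild type arrays without overlap, an order found for 7.75% of all genes, and for Kif23 below them, found for 6.56%. On values without background correction, 1.05% of all genes were called higher and 9.14% lower in this comparison, and none of the 37 rose.

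In Fshr-CAM/Lhr-null against Lhr-null ovaries, which asks what Fshr-CAM did where Lhr was lost, none of the 37 genes passed (limma), with 0.132% of all genes called higher and 0.569% lower. The medians were −0.22 for S phase and −0.28 for mitosis, against 0.04 over all genes, and 2 of 37 genes, Kif23 (0.17) and Kif11 (0.01), a motor of the bipolar spindle, were above 0. Top2a was the gene of the 37 with an unadjusted p under 0.05, against 1594 of all 12137 genes. It had 9.10, 8.95, 9.08, 10.04 and 9.39 in Fshr-CAM/Lhr-null ovaries, against 9.71, 10.16 and 9.78 in Lhr-null ovaries. The groups overlapped through Fshr-CAM/Lhr-null replicate 4, and the difference was −0.57 ± 0.27 (95% interval −1.14 to −0.01, limma adjusted p = 0.369).

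Aurka differed by −0.50 ± 0.28 (limma adjusted p = 0.48) between the same groups, Rrm1 by −0.30 ± 0.16 (limma adjusted p = 0.421) and Tyms, the thymidylate synthase, by −0.36 ± 0.22 (limma adjusted p = 0.52). Cdk1 (−0.36 ± 0.21), Pcna (−0.38 ± 0.41) and Mcm2 (−0.07 ± 0.21) also missed it. These intervals do not show that the groups were alike: the 95% interval for Mcm2 ran from −0.53 to 0.38. The arrays of the 2 groups overlapped for all 37 genes, where 5.27% of all genes lay wholly higher in Fshr-CAM/Lhr-null ovaries and 2.63% wholly lower. With Lhr-null replicate 1 included the medians turned to 0.43 and 0.53.

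On ovaries that kept Lhr, Fshr-CAM against wild type, none of the 37 genes passed (limma), and 0.173% of all genes were called higher and 0.033% lower. The differences ran from −0.38 to 0.23, 11 of 37 were above 0, and the medians were 0.00 for S phase, to 2 decimals, and −0.12 for mitosis. Kif23 was the gene of the 37 with an unadjusted p under 0.05 (−0.38 ± 0.16, limma adjusted p = 0.705), against 735 of all 12137 genes. Mcm2 had 7.56, 8.35, 8.28 and 8.22 in Fshr-CAM ovaries, against 8.06, 7.37, 8.26 and 7.82 in wild type ovaries. These overlapped, with a difference of 0.23 ± 0.21 (95% interval −0.21 to 0.67). Top2a, with 8.20, 9.06, 9.18 and 9.26 in Fshr-CAM ovaries, also overlapped with wild type, and its difference was 0.13 ± 0.26 (95% interval −0.42 to 0.67). Gins2 (−0.17 ± 0.18), Cenpa (−0.26 ± 0.20), Cdk1 (−0.26 ± 0.21) and Pcna (0.22 ± 0.40) lay on either side of 0. The arrays of the 2 groups overlapped for all 37 genes, where 2.06% of all genes lay wholly higher in Fshr-CAM ovaries and 1.42% wholly lower.

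The interaction, the effect of Lhr loss on Fshr-CAM minus that on wild type Fshr, tests whether the 2 effects of Lhr loss differed. None of the 37 genes passed (limma), and 0% of all genes were called higher and 0.198% lower. Against 894 of all 12137 genes, 1 of the 37 had an unadjusted p under 0.05. That gene was Kif23 (0.55 ± 0.23, limma adjusted p = 0.597). Top2a gave −0.70 ± 0.37 (95% interval −1.48 to 0.08, limma adjusted p = 0.724), Tyms −0.38 ± 0.30, Pcna −0.59 ± 0.58, Mcm2 −0.30 ± 0.30 and Cdk1 −0.10 ± 0.30. The medians were −0.20 for S phase and −0.19 for mitosis, against 0.03 over all genes. So 7 genes past the threshold on wild type Fshr and none on Fshr-CAM is not a tested difference between the genotypes.

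Kif23, the midzone motor of cytokinesis, was the gene that fell, but its probes disagreed. Its brightest probe, ILMN_1250752, which the annotation ties to a cDNA clone record, had 9.68, 9.29, 9.88, 9.29 and 9.45 in Fshr-CAM/Lhr-null ovaries and 9.52, 9.47 and 9.07 in Lhr-null ovaries, against 10.21, 10.10, 9.86 and 9.78 in Fshr-CAM ovaries and 10.24, 10.13, 10.59 and 10.52 in wild type ovaries. On this probe all 8 arrays without Lhr lay below all wild type arrays. Its difference was −1.02 ± 0.17 in Lhr-null against wild type (2.03-fold lower, limma adjusted p = 0.00132), −0.85 ± 0.15 in Fshr-CAM/Lhr-null against wild type (1.80-fold lower, limma adjusted p = 0.00205) and −0.47 ± 0.15 in Fshr-CAM/Lhr-null against Fshr-CAM (limma adjusted p = 0.125).

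ILMN_2923463, a Kif23 probe tied to the RefSeq transcript, had 8.05, 7.96, 8.32, 8.92 and 8.23 in Fshr-CAM/Lhr-null ovaries and 8.63, 8.94 and 8.95 in Lhr-null ovaries, against 7.07, 7.95, 7.76 and 8.23 in Fshr-CAM ovaries and 8.0, 7.70, 8.29 and 8.31 in wild type ovaries. Its Lhr-null arrays lay above all wild type arrays. For Lhr loss averaged over both Fshr genotypes it was 0.66 ± 0.17 higher (limma over 23098 probes, adjusted p = 0.0175), the direction of the other mitosis genes, while ILMN_1250752 was −0.74 ± 0.11 (limma adjusted p = 0.000468 over probes).

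ILMN_1220121, also tied to the RefSeq transcript of Kif23, gave 0.49 ± 0.36 (limma adjusted p = 0.395), with a wide spread within Fshr-CAM/Lhr-null ovaries. ILMN_1249092, tied to another clone record of Kif23 and detected on 5 of 16 arrays, gave −0.02 ± 0.13 (limma adjusted p = 0.93). The mean of the 4 Kif23 probes differed by 0.13 in Lhr-null against wild type ovaries and by 0.09 in the averaged comparison, and neither passed. The fall of Kif23 is thus a result of 1 probe, whose match to the Kif23 transcript was not tested.

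**Figure D5:**
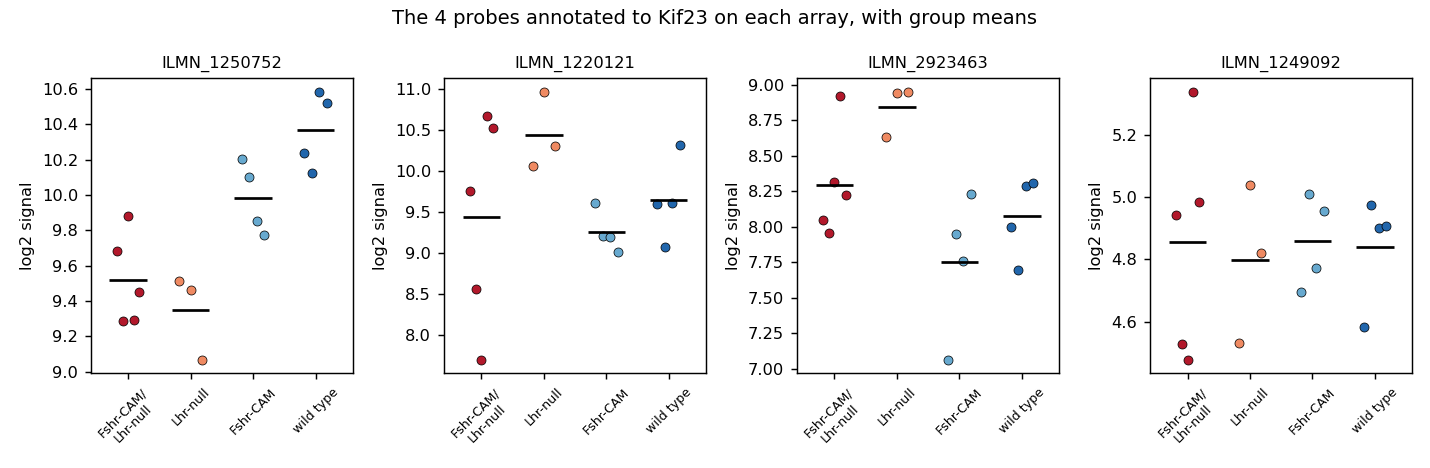
Log2 signal (vertical axes) of the 4 kept probes annotated to Kif23 on each of the 16 arrays, by genotype; points are arrays and lines are group means. In ILMN_1250752 the arrays without Lhr lie low, in ILMN_2923463 the Lhr-null arrays lie high, and ILMN_1249092 stays near 4.84 in all groups.

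For the genes other than Kif23 the probes mostly moved together. Of the 37 genes 19 had 1 kept probe and 18 had several, 64 probes in all. In the averaged comparison 41 of the 64 probes, of 30 genes, were called higher and 1 lower, against 7.86% and 9.02% of all 23098 probes, and 60 of 64 lay above 0. The 4 below 0 were 2 probes of Kif23, that of Pcna and 1 of Mcm6, an MCM subunit. In Lhr-null against wild type 9 probes, of 8 genes, were called higher and 1 lower, against 3.69% and 5.87% of all probes.

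Within each genotype the 37 genes ranked the arrays alike. In wild type ovaries replicate 2 was the lowest array for 34 of 37 genes, where it was the lowest for 22.7% of all genes. In Fshr-CAM ovaries replicate 1 was the lowest for 32 genes, against 38.2% of all genes. Among Fshr-CAM/Lhr-null ovaries replicate 4 was the highest for 30 genes, against 28.6% of all genes, and among the 3 Lhr-null ovaries replicate 3 was the highest for 29, against 32.9%. On that array 19 of the 20 mitosis genes had the highest value of the 3, against 10 of the 17 S phase genes.

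Other markers moved with these arrays. The mean log2 signal of a list of corpus luteum genes was 10.95 on wild type replicate 2, against 9.76 to 10.54 on the other 3 wild type arrays, and 10.49 on Fshr-CAM replicate 1, against 9.31 to 10.28 on the other 3 Fshr-CAM arrays. On Fshr-CAM/Lhr-null replicate 4 it was 7.01, the lowest of its group, and on Lhr-null replicate 3 it was 7.46, the highest of its group. The oocyte list averaged 9.16 on Fshr-CAM/Lhr-null replicate 4 and 7.10 on Fshr-CAM replicate 1, the highest and lowest of all 16 arrays. So the arrays with the lowest proliferation signal of their group had the highest luteal signal in both genotypes that kept Lhr. The remaining arrays did not share 1 order. On wild type replicates 1, 3 and 4 luteal signal was 9.76, 10.28 and 10.54, and the S phase mean was 8.28, 8.46 and 8.47. On Fshr-CAM replicates 2, 3 and 4 luteal signal was 10.28, 10.03 and 9.31, and the S phase mean was 8.34, 8.40 and 8.51. The part of these lists in the result was not tested.

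Between genotypes, several lists of cell type markers also moved with Lhr loss. In Lhr-null against wild type ovaries 6 of 7 measured corpus luteum genes fell (median −3.34, limma adjusted p under 0.05) and 6 of 12 granulosa cell genes rose (median 0.76). There 2 of 15 oocyte genes rose (median 0.69) and 8 of 11 endothelial genes fell (median −0.75), where 5.5% of all genes were called higher and 6.9% lower. The mean luteal signal ran from 7.01 to 7.60 on Fshr-CAM/Lhr-null arrays and from 6.75 to 7.46 on Lhr-null arrays, against 9.31 to 10.49 on Fshr-CAM arrays and 9.76 to 10.95 on wild type arrays. The mean granulosa signal ran from 10.44 to 10.54 on Fshr-CAM/Lhr-null arrays and from 10.03 to 10.50 on Lhr-null arrays, against 10.12 to 10.49 on Fshr-CAM arrays and 9.36 to 10.04 on wild type arrays. This list includes Fshr itself, the gene that the Fshr-CAM genotype alters. Fshr averaged 11.16 in Fshr-CAM/Lhr-null and 11.52 in Fshr-CAM ovaries, against 9.60 in Lhr-null and 8.79 in wild type ovaries. The list mean without Fshr was not computed.

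Lists of tissues next to the ovary also moved in Lhr-null against wild type: 6 of 9 genes of oviduct and cilia rose (median 3.43), as did 5 of 6 adipocyte genes (median 1.47). In Fshr-CAM/Lhr-null against Fshr-CAM ovaries, 0.445% of all genes were called higher and 1.66% lower. There 0 of 9 oviduct and cilia genes rose (limma, 1 at an unadjusted p under 0.05, median 0.13) and 0 of 12 granulosa cell genes (3 unadjusted, median 0.06). Of the luteal genes 5 of 7 fell (median −1.95), and 1 of 15 oocyte genes rose (median 0.94). The mean of the oviduct and cilia list ran from 5.29 to 6.24 on Fshr-CAM/Lhr-null arrays, against 5.23 to 5.66 on Fshr-CAM arrays, and the proliferation medians in this comparison were 0.45 and 0.56. Spermatid and meiotic genes averaged 7.78 on Lhr-null replicate 2, against 5.33 and 5.56 on replicates 3 and 4 and 4.49 to 5.21 on the 13 arrays of the other genotypes. That mean is over 10 genes, of which 3 were measured after the detection filter. The part of any of these lists in the proliferation result was not tested.

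Further genes of replication and mitosis, from lists that hold none of the 45, moved the same way. They were read on the same arrays and chosen with earlier results of these data known, so they are not independent support. Of 36 measured genes of other S phase functions 10 rose and 0 fell in Lhr-null against wild type ovaries (limma adjusted p under 0.05, median 0.51). Of all genes 5.5% were called higher there and 6.9% lower. Clspn, which couples the fork to its checkpoint, rose by 1.01 ± 0.32 (limma adjusted p = 0.0475), and Pold1, the catalytic subunit of DNA polymerase delta, by 0.99 ± 0.21 (limma adjusted p = 0.00676). Cdc7, the kinase that fires origins, rose by 0.88 ± 0.22 (limma adjusted p = 0.0155), and Ung, which removes uracil from DNA, by 0.82 ± 0.20 (limma adjusted p = 0.0149). In Fshr-CAM/Lhr-null against wild type, where 4.49% of all genes were called higher, 3 of 36 rose: Pold1 (0.66), Ung (0.65) and Rpa1 (0.40). Rpa1 coats single-stranded DNA. In the averaged comparison, where 10.8% of all genes were called higher, 21 of 36 rose, among them Mcm10, a helicase cofactor (0.72).

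Of 50 measured genes of other mitosis functions 8 rose and 0 fell in Lhr-null against wild type ovaries (limma adjusted p under 0.05, median 0.59). The shares of all genes called there were 5.5% higher and 6.9% lower. Pbk, a mitotic kinase, rose by 1.32 ± 0.35 (2.50-fold, limma adjusted p = 0.0233) and Cenpn, which reads the centromere, by 0.94 ± 0.24 (limma adjusted p = 0.0191). Cdca2, a phosphatase targeting subunit of chromatin, rose by 0.88 ± 0.25 (limma adjusted p = 0.0298), and Cenpk, of the inner kinetochore, by 0.84 ± 0.25 (limma adjusted p = 0.0412). None passed in Fshr-CAM/Lhr-null against wild type, where 15 of 50 had an unadjusted p under 0.05, against 3052 of all 12137 genes. In the averaged comparison, where 10.8% of all genes were called higher, 27 of 50 rose. Among them were Cdca8, of the chromosomal passenger complex (0.80), and Cdca3, a trigger of mitotic entry (0.76).

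Regulators of the cycle, such as retinoblastoma and E2F family members, kinases of the start of S phase and DREAM subunits, formed a further list. In Lhr-null against wild type ovaries 1 of 20 measured regulators rose, a share near the 5.5% of all genes called higher, so it is no result about the list, and the median was 0.14. That gene was Cdk2, the kinase of S phase entry (0.44 ± 0.13, limma adjusted p = 0.0351). In Fshr-CAM/Lhr-null against wild type, where 4.49% of all genes were called higher, 2 of 20 rose: Cdk2 (0.36 ± 0.11) and Tfdp2, an E2F partner (0.36 ± 0.10). In the averaged comparison, where 10.8% of all genes were called higher, 5 of 20 rose (median 0.13): Cdk2 (0.33), Tfdp2 (0.30), E2f2 (0.49), an E2F factor, Rbl1 (0.34), a pocket protein, and Mybl2 (0.44), a partner of the DREAM subunits. No gene of the 3 lists passed in Fshr-CAM against wild type, in Fshr-CAM/Lhr-null against Lhr-null, in Fshr-CAM/Lhr-null against Fshr-CAM or in the interaction (limma). Their numbers at an unadjusted p under 0.05 in Fshr-CAM/Lhr-null against Fshr-CAM were 16 of 36 S phase genes, 20 of 50 mitosis genes and 3 of 20 regulators, and at most 5 of a list in the other 3 comparisons. In Fshr-CAM/Lhr-null against Fshr-CAM these shares were larger than among all genes for S phase and mitosis, and smaller for the regulators.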

How the data were processed

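Ovary RNA of 17 samples was measured as 1 colour on Illumina bead arrays. The deposited intensities are each probe's mean bead signal, not normalised, made with GenomeStudio 1.7.0 per the submitters' processing notes and without background subtraction per the name of the deposited table. The deposited detection p-values and the count of beads per probe (median 41 to 43 per array, per the file headers) accompany them. The authors' quantile-normalised intensities, which the series matrix repeats, served as alternatives. Precision is limited by the number of arrays.

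Signals were background-corrected on the detection p-values, quantile-normalised and put on the log2 scale (neqc, offset 16, limma 3.58.1 in R 4.3.3). Kept were probes whose detection p fell under 0.05 on 4 or more arrays, and each gene was read from its brightest kept probe. Of 45281 probes 34885 had 1 symbol, 18 several and 10378 none. A linear model gave each genotype 1 mean over 16 arrays, with an intensity trend in the empirical Bayes step, and Benjamini-Hochberg adjustment ran over 12137 genes at 0.05. Lhr-null replicate 1 was left out of it for its pituitary transcripts, and its correlation with the other arrays was 0.81 to 0.84 against 0.923 to 0.988 among them. Errors of differences are standard errors and intervals are at 95%. Alternatives covered left-out arrays, normalization, filters, probe choice, array weights and a block. Whether the replicate numbers pair the samples is not known, and the main fit used no pairing. In 4 of 21 same-numbered pairs the deviations from group means correlated above 0.1 (range −0.467 to 0.321). Pairs with unlike numbers were not compared, so these values cannot settle it. The fit was tested on simulated data with known changes.

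The members and all gene lists were chosen with earlier results of these data known. Always named were Top2a, Cdk1, Pcna, Mcm2 and Fshr, and per comparison up to 6 genes a class past the threshold by size, or the 2 of smallest p where fewer than 2 passed, and up to 4 genes of each further list. Figures were drawn with matplotlib 3.10.9.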

Additional observations from a re-analysis of the deposited data

Results flagged for a closer look

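For 20 of the 37 genes and both class means, each genotype's highest and lowest array was set against the rest of its group by Dixon's test. Of 88 groups of values 25 passed. Chance alone passes about 1 in 20 single groups. These groups share the same arrays and are not independent, so that rate cannot be set against the 25. In 17 of the 25 the array was Lhr-null replicate 1, which is outside the values above and is scaled here with all 17 arrays. Its S phase mean was 6.37. Among its S phase genes it had 6.67 for Mcm2, 6.31 for Gins2, 5.18 for Gins1, 7.61 for Rrm1, 7.58 for Tyms, 4.49 for Rrm2, 7.75 for Mcm5, 6.41 for Uhrf1 and 6.36 for Cdt1. Among its mitosis genes it had 8.06 for Cenpa, 5.06 for Top2a, 5.22 for Cdk1, 5.98 for Aurka, 7.05 for Prc1, 5.60 for Cdc20 and 5.54 for Birc5. All of these lay below the other 3 Lhr-null arrays, and the array carried pituitary transcripts, whose part in these values was not tested.

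Fshr-CAM/Lhr-null replicate 4 stood above its group in 4 genes. It had 8.40 for Gins2, against 7.75 to 7.92 on the other 4 arrays, 11.65 for Mcm4, against 10.88 to 11.02, 11.83 for Prc1, against 10.80 to 11.06, and 10.52 for Tyms, against 9.54 to 9.76. Fshr-CAM replicate 1 stood below its group in 3 genes. It had 7.56 for Mcm2, against 8.22 to 8.35 on the other 3 arrays, 10.15 for Mcm4, against 10.76 to 10.82, and 7.71 for Aurka, against 8.78 to 8.86. Wild type replicate 2 had 8.30 for Cdc20, against 9.30 to 9.43 on the other 3 wild type arrays.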

How the results depend on the processing

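Of the counts and medians recomputed under alternatives other than leaving out 1 array, 302 stayed close to their value and 26 moved. Of those with 1 array left out, 434 stayed and 14 moved. These tallies do not measure robustness. The authors' quantile-normalised values and the series matrix hold the same numbers but were each counted, and several results were counts of 0 genes. Where no cause is named, the cause was not tested. With Lhr-null replicate 1 included (17 arrays), 0 genes rose in Lhr-null against wild type ovaries, in Fshr-CAM/Lhr-null against wild type and in the averaged comparison. The medians (S phase, mitosis) were then −0.0052 and −0.14 in Lhr-null against wild type, 0.43 and 0.53 in Fshr-CAM/Lhr-null against Lhr-null, 0.37 and 0.60 in the interaction and 0.20 and 0.21 averaged. Signs turned with it in Lhr-null against wild type for Top2a (−0.12), Prc1 (−0.20), Cdk1 (−0.51) and Pcna (−0.14). In Fshr-CAM/Lhr-null against Lhr-null they turned for Rrm1 (0.11), Tyms (0.29), Top2a (0.63), Aurka (0.42), Cdk1 (0.83), Pcna (0.038) and Mcm2 (0.43), and in the interaction for Tyms (0.27), Top2a (0.50), Cdk1 (1.09) and Mcm2 (0.20).

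Without Fshr-CAM/Lhr-null replicate 4 (15 arrays) 16 genes rose in Lhr-null against wild type and 0 in Fshr-CAM/Lhr-null against wild type; without Lhr-null replicate 2 as well (14 arrays) the second number was also 0, and Pcna averaged 0.021. With the compared groups fitted alone, 2 genes rose in Fshr-CAM/Lhr-null against wild type, and in Lhr-null against wild type 0 fell, since another Kif23 probe was then the brightest (0.79). The authors' quantile-normalised values, and the same values in the series matrix, gave Pcna an averaged difference of 0.0011. Without background correction and median-centred, 2 genes rose in Lhr-null against wild type, 0 in Fshr-CAM/Lhr-null against wild type and 9 averaged, and 1, Kif23, fell in Fshr-CAM/Lhr-null against Fshr-CAM (−0.68). Without the detection filter 4 rose in Lhr-null against wild type. Array weights gave 20 there, 2 in Fshr-CAM/Lhr-null against wild type and 0.12 for averaged Pcna. The mean of a gene's probes left 0 genes that fell in each single comparison with wild type and averaged. By it Kif23 was 0.13 in Lhr-null against wild type, 0.065 in Fshr-CAM/Lhr-null against Fshr-CAM, −0.060 in the interaction and 0.095 averaged, and Top2a was −0.0040 in Fshr-CAM against wild type.

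With 1 array left out, the number of genes that rose was 0 to 19 in Lhr-null against wild type, 0 to 2 in Fshr-CAM/Lhr-null against Fshr-CAM, 0 to 4 in Fshr-CAM/Lhr-null against wild type and 17 to 30 averaged. Top2a ran from −0.029 to 0.37 in Fshr-CAM against wild type. Pcna ran from −0.00047 to 0.53 in Lhr-null against wild type, −0.34 to 0.17 in Fshr-CAM/Lhr-null against wild type and −0.16 to 0.12 averaged. Mcm2 ran from −0.18 to 0.0053 in Fshr-CAM/Lhr-null against Lhr-null, and Cdk1 from −0.22 to 0.092 in the interaction. The replicate block, on numbers whose pairing is not known, gave 5 genes in place of 7 in Lhr-null against wild type and 25 in place of 30 averaged. It gave 0.023 for Mcm2 in Fshr-CAM/Lhr-null against Lhr-null. A slide block was not run, since the files used give no slide. With 3 Lhr-null arrays, 6 members below the detection filter and 2 without a probe, what these arrays can show of mitosis is limited.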
